A study of Caenorhabditis elegans with 2 samples.

Results

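The genes described here are nhr-47, nhr-68 and nhr-49, 3 members of the nuclear hormone receptor family of Caenorhabditis elegans that carried a ZFP-3 peak at their annotated 5′ ends. They were chosen on the values of the main peak list below, in which 6 of the 269 protein-coding genes with an nhr symbol had such a peak, and these 3 had the strongest. Their positions, signals and ranks in that list are therefore a description with no test. The other 266 receptor genes, and the 19973 protein-coding genes of the 6 nuclear chromosomes, serve for comparison.

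The study located ZFP-3, which is a zinc finger protein, on the genome by chromatin immunoprecipitation and sequencing of whole L4 larvae. All animals were of strain RW12271, which carries a CRISPR insertion at the endogenous zfp-3 gene on the X chromosome and makes ZFP-3 fused to TY1, EGFP and 3xFLAG tags. The larvae were 48 h old and had been synchronized as starved L1 larvae after bleaching, the chromatin was sonicated to 200 to 800 bp, and the antibody was against GFP. The 2 biological replicates formed 1 group, without a second condition, strain or stage, so no test over samples could be made. Whole animals were used, so a peak is a sum over all tissues, and tissues could not be told apart.

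Nuclear hormone receptors are transcription factors with a zinc finger DNA-binding domain and, usually, a ligand-binding domain that lets small lipophilic molecules set their activity. The family is greatly expanded in C. elegans, mostly through relatives of the vertebrate receptor HNF4. NHR-49 is known in this worm as a regulator of fatty acid desaturation, fatty acid oxidation and stress responses, acting with the Mediator subunit MDT-15. NHR-68 acts with NHR-10 when vitamin B12 is low to switch on a shunt that breaks down propionate by a route that does not need the vitamin.

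The sequences at the nhr-47 and nhr-68 summits, and at a further receptor gene with a site, nhr-142, are given 5′ to 3′ on the strand of the receptor gene. They were read from the RefSeq genome WBcel235, the same assembly as ce11, and each is 101 bp long. The nhr-47 stretch, chrV:5505152-5505252 on the plus strand, ends at the last base before the annotated gene. The nhr-68 stretch is chrV:11572995-11573095 on the plus strand and the nhr-142 stretch is chrV:5791029-5791129 on the minus strand, each centred on its summit. For nhr-47 and nhr-142, capitals mark 2 words that both sites hold and that are described further on. For nhr-68, capitals mark the 5 bases around the summit of the main list and the 5 bases around the summit of replicate 1.
nhr-47: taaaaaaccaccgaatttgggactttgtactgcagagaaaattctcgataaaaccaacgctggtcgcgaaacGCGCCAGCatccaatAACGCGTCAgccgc
nhr-68: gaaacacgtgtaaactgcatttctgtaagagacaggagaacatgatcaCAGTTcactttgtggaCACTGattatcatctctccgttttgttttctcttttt
nhr-142: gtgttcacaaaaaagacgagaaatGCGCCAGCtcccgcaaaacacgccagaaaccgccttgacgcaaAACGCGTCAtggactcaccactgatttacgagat

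The authors deposited peak lists, and the values are the signal of each peak, which is its strength, and a score, which is a scaled irreproducible discovery rate (IDR) with a highest value of 1000. The main list was the authors' conservative list of both libraries, with 2010 peaks and a median signal of 82.3. In the single libraries, 931 peaks of replicate 1 and 933 of replicate 2 passed the threshold. Ranked lists, which had no threshold, held 106942 peaks for both libraries, 43564 for replicate 1 and 43966 for replicate 2. A gene is called bound where a summit of the main list lay from 1000 bp before to 200 bp after its annotated 5′ end, here called the promoter window. Many worm messages are trans-spliced, so an annotated 5′ end can lie downstream of the true transcription start. Signals are on the authors' scale and were compared within a list only, and the read depth of the libraries is unknown.

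nhr-47, the receptor gene with the strongest site in its window, lies at chrV:5505253-5509956 on the plus strand and has 1 annotated transcript. Its peak covered chrV:5505064-5505399, and the summit was 21 bp before the 5′ end of the gene. The signal in the main list was 153, which ranked 255 of 2010, and the score was 1000. In the libraries the signal was 75.4 in replicate 1, rank 292 of 931, and 87.4 in replicate 2, rank 176 of 933. Both libraries therefore placed the site within their own thresholded list, and both gave it the first place among receptor genes. The summits of the libraries lay 15 bp and 31 bp before the gene, 16 bp apart.

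The nhr-47 site does not belong to that gene alone. The summit fell in an exon of the noncoding RNA gene C24G6.10 on the opposite strand, 29 bp after that gene's 5′ end. It also fell in the window of dnj-19, a divergent gene for a DnaJ chaperone, 375 bp before its 5′ end, and in that of the noncoding RNA gene C24G6.12, 185 bp before. The peak data cannot tell which of these genes, if any, the site acts on. No other thresholded peak lay from 1000 bp before nhr-47 to 500 bp past its end in any list used here. The next strongest ranked peak of both libraries there was in the 3′ UTR, 4611 bp after the 5′ end, with a signal of 59.8 and a score of 446. The promoter peak was 2.56 times as strong as that in the list of both libraries. The same ratio of strongest to second strongest peak was 2.63 in replicate 1 and 3.62 in replicate 2.

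nhr-68, the gene of the propionate shunt regulator, lies at chrV:11573440-11575709 on the plus strand with 2 annotated transcripts. Its peak covered chrV:11572877-11573212, with an intergenic summit 395 bp before the 5′ end. The signal was 146 in the main list, rank 285 of 2010, with a score of 1000. In the libraries it was 68.5 in replicate 1, rank 359 of 931, and 77.01 in replicate 2, rank 235 of 933. As at nhr-47, the site passed the threshold in both libraries, and it was second among receptor genes in each.

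The position of the nhr-68 site was less even between libraries than that of nhr-47. The replicate 1 summit lay 379 bp before the 5′ end and the replicate 2 summit 493 bp before it. Over the 543 main peaks that overlapped a thresholded peak of both libraries, the median gap was 22 bp, with quartiles of 8 and 52.5 bp. A gap at least as wide as that at nhr-68 was found at 43 of them, or 7.92%. The replicate 2 summit fell in an intron of H12C20.7, the divergent protein-coding gene, and the main summit was 55 bp before the 5′ end of that gene. H12C20.7 is thus nearer to the site than nhr-68. A further receptor gene, nhr-101, lies upstream on the same strand and ends before the site, and it was not bound in its own window. The second strongest ranked peak near nhr-68 had a signal of 45.8 and lay past the end of the gene, so the promoter peak was 3.18 times as strong in the list of both libraries, 2.45 times in replicate 1 and 4.3 times in replicate 2.

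nhr-49, the gene of the fat metabolism regulator, lies at chrI:9869651-9874680 on the plus strand and has 7 annotated transcripts. The peak of the main list covered chrI:9869139-9869474, with an intergenic summit 344 bp before the 5′ end. Its signal of 99.7 ranked 677 of 2010, with a score of 1000. This was the weakest of the 3 member sites, though still above the median signal of the list. In replicate 1 the signal was 63.5, rank 429 of 931, at 330 bp before the 5′ end. In replicate 2 a peak with a signal of 39.6 lay 351 bp before the 5′ end, but its score of 438 kept it out of the thresholded list. The summits of the libraries lay 21 bp apart. The site was thus placed alike in both libraries and passed the threshold in replicate 1 alone. It fell in the window of no other protein-coding gene.

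nhr-49 was the one member with further thresholded peaks. Replicate 2 had its own thresholded peak inside the gene, in an intron 1220 bp after the 5′ end, with a signal of 46.5, rank 702 of 933, and a score of 1000. Near that place replicate 1 had a ranked peak with a signal of 22.4 and a score of 106, 1360 bp after the 5′ end. The list of both libraries had a ranked peak with a signal of 64.2 and a score of 578, 1258 bp after the 5′ end, below the threshold of 830. The replicate 2 summit in the intron lay 357 bp before the 5′ end of transcripts K10C3.6a.1 and K10C3.6b.1, shorter forms of nhr-49 that begin at position 9871228. The libraries thus differed in which of these places passed the threshold, and with 1 library each this difference was not tested.

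A second main-list peak lay just past the nhr-49 gene, 5133 bp after its 5′ end, with a signal of 67.1, rank 1480 of 2010, and a score of 1000. Its summit was in an intron of inx-20, a gap junction gene, 86 bp after the 5′ end of that gene. In the libraries it had a signal of 41.9 and a score of 812 in replicate 1, against a signal of 33.5 and a score of 306 in replicate 2. It was in neither thresholded list. The promoter peak of nhr-49 therefore stood out less than those of nhr-47 and nhr-68. The ratio of strongest to second strongest peak near nhr-49 was 1.48 in the list of both libraries, 1.52 in replicate 1 and 1.17 in replicate 2, where the intron peak was the stronger.

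**Figure D1:**
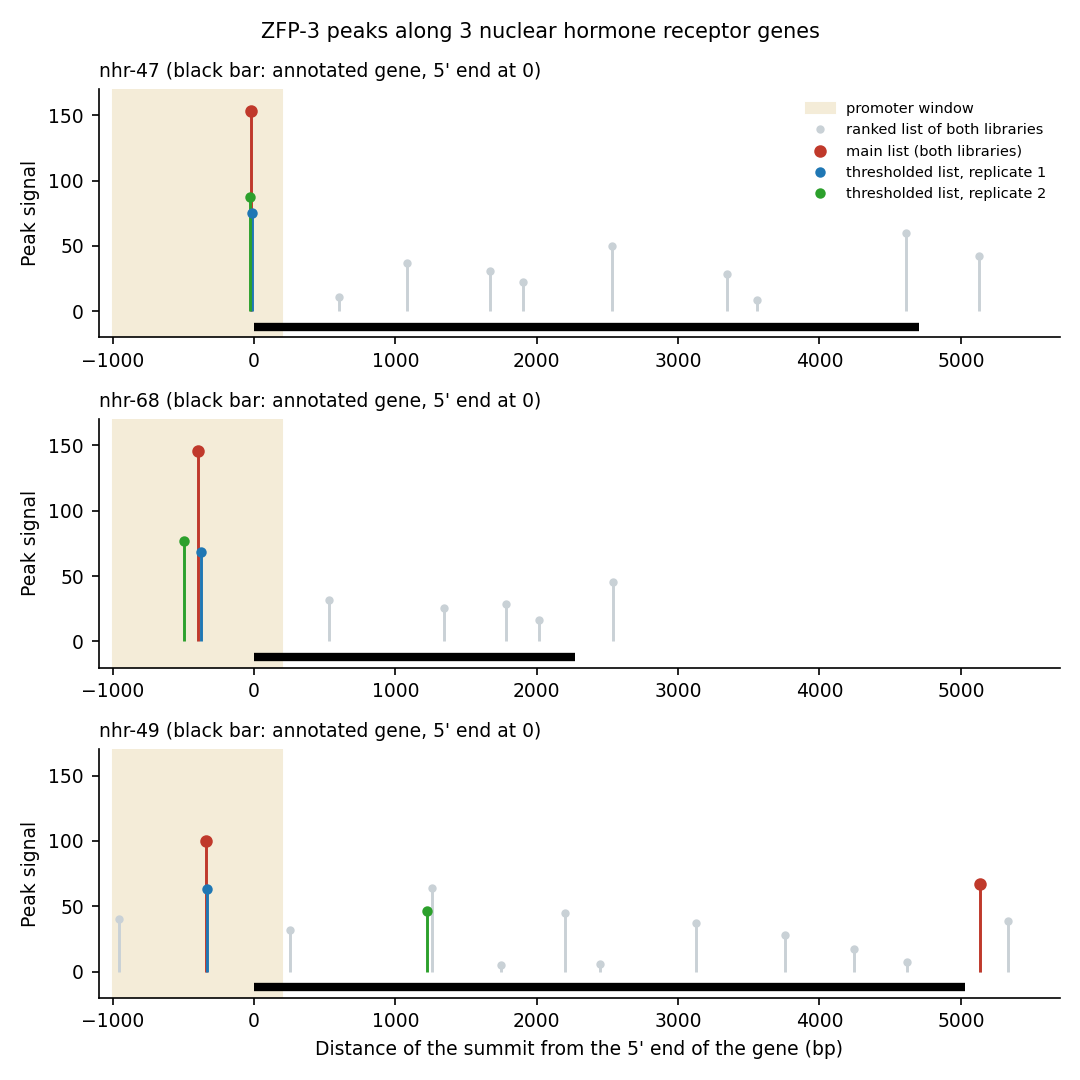
Peak signal (vertical axis, authors' scale) against distance of the summit from the 5′ end of the gene in bp (horizontal axis) for nhr-47, nhr-68 and nhr-49, with the lists in colours, the promoter window shaded and the gene as a black bar. The nhr-47 and nhr-68 sites at signals of 153 and 146 stand alone among thresholded peaks, while nhr-49 has its site at 99.7, a peak of replicate 2 in an intron and a main-list peak past its end.

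The 3 remaining bound receptor genes had weaker sites, and no role is given for them here except for nhr-2, a receptor gene known from the early embryo. nhr-142, on the minus strand of chromosome V, had a summit 526 bp before its 5′ end with a signal of 86.1, rank 912 of 2010. Its ranked signals were 43.8 in replicate 1 and 38.7 in replicate 2, and neither thresholded library list held it. The summit was nearer to the divergent gene F44E7.9, 151 bp before the 5′ end of that gene. The site of nhr-142 thus rests on the joint list of the libraries. nhr-105 had a pair of summits, 930 bp and 203 bp before its 5′ end, with signals of 63.6 and 55.3, scores of 909 and 864, and no thresholded peak in either library. nhr-2 had a summit 970 bp before its 5′ end with a signal of 56.2, rank 1766 of 2010. That peak overlapped a thresholded peak of replicate 1 with a signal of 50.1, whose summit lay outside the window.

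The 3 listed genes were thus the receptor genes with a window site that also passed the threshold as a summit in a single library. In replicate 1 the strongest window peaks of the family were those of nhr-47 at 75.4, nhr-68 at 68.5 and nhr-49 at 63.5, followed by nhr-179 at 44.4. In replicate 2 they were those of nhr-47 at 87.4 and nhr-68 at 77.01, followed by nhr-10 at 40.7 and nhr-49 at 39.6. nhr-47 lay above nhr-68 in both libraries, and nhr-10, which passed no threshold in its window, lay just above nhr-49 in replicate 2. The main list was made from these same libraries, so their values describe the members and are no independent support for the choice or the order.

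**Figure D2:**
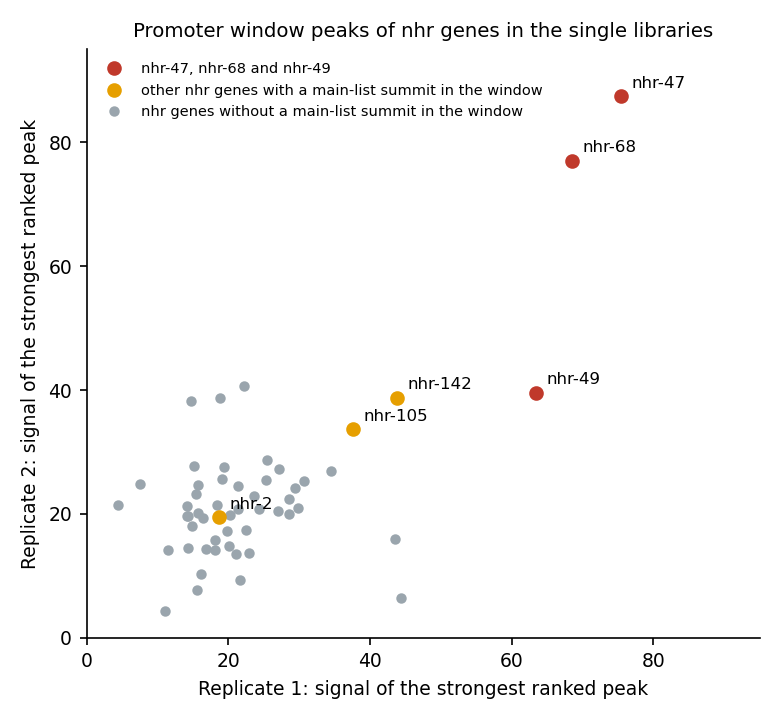
Signal of the strongest ranked peak in the promoter window in replicate 1 (horizontal axis) and replicate 2 (vertical axis), authors' scale, 1 point for each of the 54 nhr genes with a window peak in both libraries. nhr-47 (75.4 and 87.4) and nhr-68 (68.5 and 77.01) lie apart from the other points in both libraries, and nhr-49 (63.5 and 39.6) in replicate 1 alone.

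The edges of the rule were narrow for some genes. Just inside the window were nhr-2 at 970 bp and nhr-105 at 930 bp before the 5′ end. Just outside were nhr-34, with a summit 521 bp after the 5′ end and a signal of 54.2, a second nhr-2 summit 1194 bp before with a signal of 23.3, and nhr-10, 1401 bp before with a signal of 58.0. For the score, nhr-105 with 864 was the lowest in the window, and nhr-35, with 788 and a signal of 56.8 at 375 bp before its 5′ end, was the highest below the threshold. The highest signal of a receptor gene that missed it was that of nhr-10, which was 59.5 at 801 bp before the 5′ end, with a score of 555. The listed members, all with a score of 1000 and summits from 21 to 395 bp before the 5′ end, lay well inside both limits.

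The share of bound receptor genes was no higher than that of all protein-coding genes in any thresholded list. In the main list 6 of 269 receptor genes were bound, which is 2.23% with an exact binomial (Clopper-Pearson) 95% interval from 0.823 to 4.79%. Among all 19973 protein-coding genes 889 were bound, or 4.45%, which lies within that interval. In the other thresholded list of the series, with 1458 peaks, 5 receptor genes were bound (1.86%, interval 0.606 to 4.28%), against 3.44% of protein-coding genes. In the list of replicate 1 there were 3 (1.12%, interval 0.231 to 3.22%), against 2.49%, and in that of replicate 2 there were 2 (0.743%, interval 0.0902 to 2.66%), against 2.30%. The receptor share was the lower in each list, and each interval reached above the share of all genes. These intervals cover counting error only, and neighbouring genes are not independent.

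**Figure D3:**
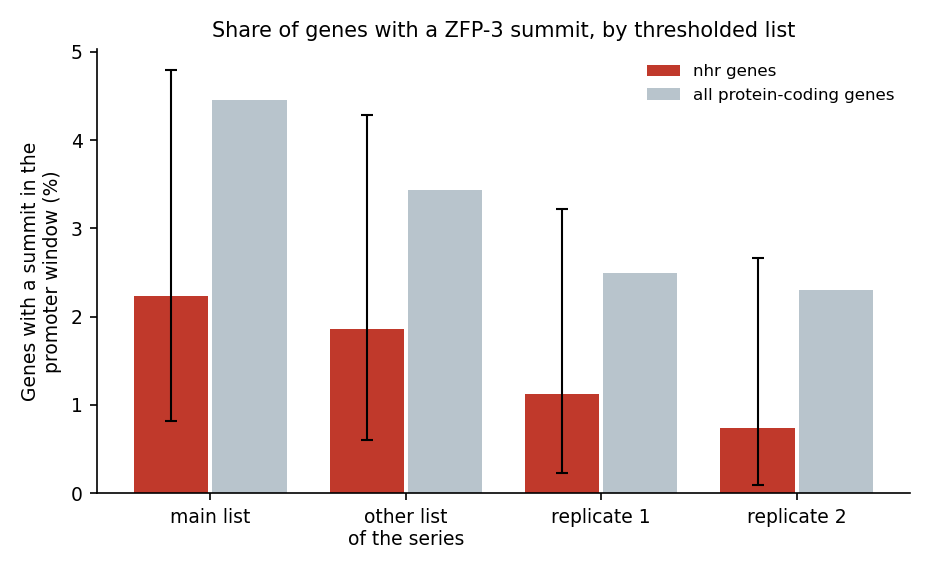
Share of genes in percent (vertical axis) with a summit in the promoter window, for nhr genes (left bar, with the exact 95% binomial interval) and all protein-coding genes (right bar), in 4 thresholded lists. The receptor share is 2.23% in the main list, against 4.45% of protein-coding genes, and the interval includes the share of protein-coding genes.

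Chromosomes differed in both measures. Chromosome V held 167 receptor genes, 62.1% of the family, against 25% of all protein-coding genes. Of these 3 were bound, among them nhr-47 and nhr-68. On this chromosome 2.92% of protein-coding genes were bound, the lowest share of any chromosome. Chromosome I, with nhr-49 and nhr-2, had 23 receptor genes, 2 of them bound, against 5.63% of its protein-coding genes. Chromosome IV held nhr-105 among 33 receptor genes, against 4.72% of its protein-coding genes. Chromosomes II, III and X, with 15, 8 and 23 receptor genes, had no bound one, where 4.23%, 7.2% and 3.3% of protein-coding genes were bound. With so few receptor genes per chromosome, these counts are near the shares of all genes.

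Without a threshold, receptor windows looked like those of other genes. A ranked peak of both libraries lay in the window of 195 of 269 receptor genes (72.5%, interval 66.7 to 77.7%), against 70.9% of protein-coding genes. In replicate 1 this was so for 92 receptor genes (34.2%), against 39.6% of protein-coding genes, and in replicate 2 for 107 (39.8%), against 40.7%. Where there was a peak, the median of the strongest signal in the list of both libraries was 26.5 over receptor genes, with quartiles of 17.6 and 35.8, and 27.2 over protein-coding genes, with quartiles of 18.4 and 38.5. The members stood far above both medians, which the choice of members fixed. Among the 14153 protein-coding genes with such a peak, nhr-47 ranked 170, nhr-68 ranked 188 and nhr-49 ranked 416.

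**Figure D4:**
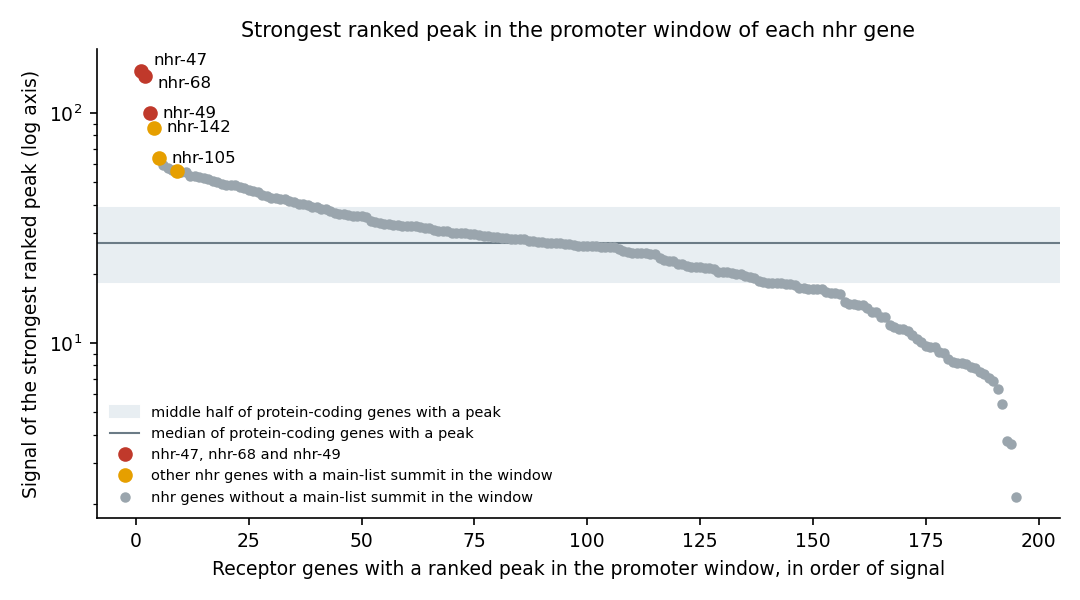
Signal of the strongest ranked peak in the promoter window (vertical log axis, authors' scale) of the 195 nhr genes that had one, in falling order (horizontal axis), with the median and quartiles of protein-coding genes as a line and a band. nhr-47, nhr-68, nhr-49 and nhr-142 lead from 153 to 86.1, and the rest run on from nhr-105 at 63.6 without a gap at the level of the weaker bound genes.

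Main-list peaks also lay within receptor genes. A main-list summit between the start and end of the gene was found in 10 receptor genes (3.72%, interval 1.8 to 6.73%), against 3.79% of protein-coding genes. The summits of the receptor genes all lay past the window, while the share of protein-coding genes includes summits in the first 200 bp. Their 14 summits had a median signal of 66.5 and ranged from 4.54 to 89.4. None of the 14 overlapped a thresholded peak of both libraries and 4 overlapped one of a single library. Those 4 include the nhr-19 summits with signals of 69.8 and 4.54, which overlapped the same thresholded peak of replicate 2. Of the 7 window summits, which include the member sites chosen for their strength, 2 overlapped thresholded peaks of both libraries (those of nhr-47 and nhr-68) and 2 overlapped one of a single library (those of nhr-49 and nhr-2). Over the 764 main peaks in protein-coding windows, 247 (32.3%) were in both single-library lists, 211 (27.6%) in one and 306 (40.1%) in neither.

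Of the 14 gene-body summits, 12 lay in introns of the receptor gene and 2 in coding exons, those of nhr-22 and nhr-286. nhr-22, whose product is a reported partner of NHR-49, had a summit 1355 bp after the 5′ end with a signal of 85.9. The strongest pair, in nhr-17 with 89.4 and nhr-41 with 88.05, lay on tRNA genes within introns of the receptor genes. nhr-41 counted as bound where the 5′ ends of all transcripts were used, which gave 7 bound receptor genes (2.6%), against 4.96% of protein-coding genes. nhr-19 had 3 gene-body summits, nhr-27 and nhr-34 had 2 each, and nhr-3, nhr-236 and nhr-21 had 1 each.

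Farther upstream, 7 summits lay from 1000 to 3000 bp before 6 receptor genes. This range was not counted over all protein-coding genes, so these counts cannot be read as few or many. The farther nhr-281 summit, with a signal of 16.5, overlapped the same ranked library peaks as the nearer one. The strongest of the upstream summits belonged to nhr-88, 2535 bp before the 5′ end, with a signal of 196, rank 144 of 2010. It was in both single-library lists, with 95.2 in replicate 1 and 97.3 in replicate 2. That site was stronger than any in a receptor window in the main list and in both libraries. The summits before nhr-69, the neighbour of inx-20, and the nearer one of nhr-281 lay in tRNA genes, with signals of 90.5 and 66.7.

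**Figure D5:**
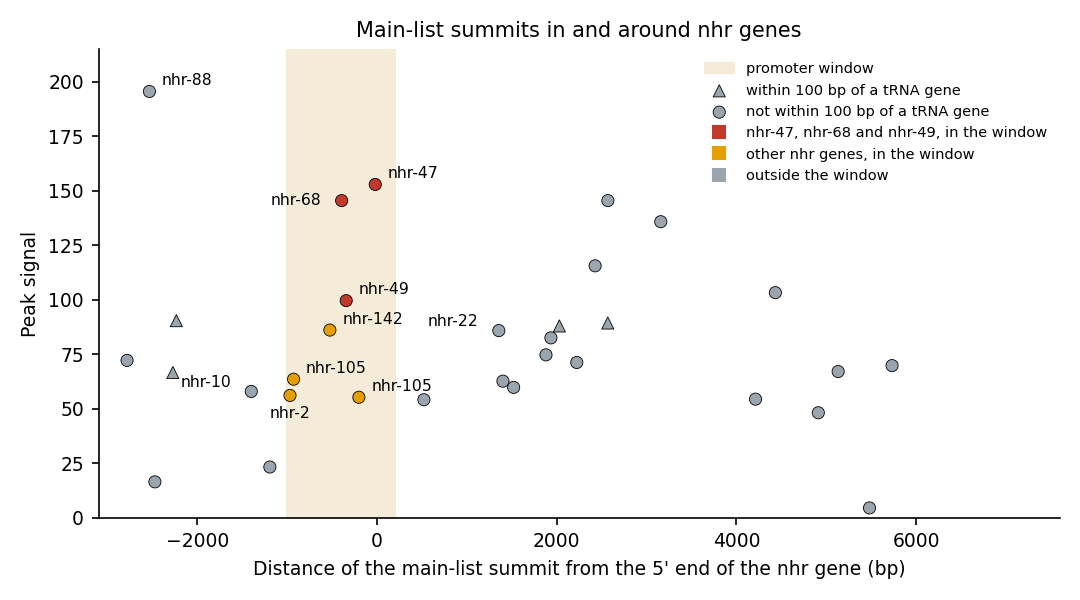
Signal (vertical axis, authors' scale) of main-list summits against their distance in bp from the 5′ end of the nhr gene (horizontal axis), for 32 of the 36 pairs of summit and gene from 3000 bp before the 5′ end to 1000 bp past the gene, leaving out 4 beyond 6000 bp. Triangles are summits within 100 bp of a tRNA gene, the nhr-68 peak appears again as a point past the end of nhr-101, and the strongest point is the distal nhr-88 site at 196, followed by nhr-47 at 153 in the shaded window.

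The genes that act with NHR-49 and NHR-68 were examined as lists, by count. Of 52 genes in 5 metabolic lists, 5 were bound, or 9.62%, against 4.45% of all protein-coding genes, and 1 of the 5 is the member nhr-68. The lists were drawn up with results of these data known, so the share is a description. Each single list below is short, and its own share is a description as well.

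Among 19 genes of fatty acid metabolism and stress responses linked to NHR-49, 1 was bound (5.26%), against 4.45% of all protein-coding genes. This was cpt-2, which codes for a carnitine palmitoyltransferase, with a summit 271 bp before the 5′ end, a signal of 122 and a thresholded peak in both libraries. That summit also fell in the window of the gene C08F8.9. The desaturase genes fat-5, fat-6 and fat-7 and the acyl-CoA synthetase gene acs-2, classical targets of NHR-49, were not bound in the main list. Their strongest ranked window signals there were 40.2, 41.3, 23.8 and 49.02. fat-6 had a thresholded window peak in replicate 2 alone. Of the 10 genes for partners and cofactors of NHR-49, 1 was bound (10%), too few genes to be read against that share. This was cbp-1, for an acetyltransferase of the CBP/p300 family, with a summit 907 bp before the 5′ end and a signal of 413, rank 18 of 2010, in both libraries. The cbp-1 summit also fell in the window of the gene R10E11.10. The Mediator subunit gene mdt-15 was not bound and had a ranked window signal of 57.9 with a score of 374.

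None of the 5 propionate shunt genes that NHR-68 is known to activate was bound. This list is too short to be read against the 4.45% of all protein-coding genes. The ranked window signals of the 5 genes had a median of 50.1, with acdh-1 at 58.7, hphd-1 at 52.5, alh-8 at 50.1, hach-1 at 42.8 and ech-6 at 28.4. All 5 lay above the median of 27.2 over protein-coding genes with a ranked peak, and hphd-1 had the highest score of them, 759. A median above 27.2 was not particular to this list. It was 34.7 for the fatty acid and stress genes, 40.2 for the canonical propionate and methionine cycle genes described next, and 59.5 for the regulators of these pathways. The partners and cofactors of NHR-49 had 23.3. Among the 3 receptor genes that regulate propionate and methionine metabolism, nhr-68 was bound, and nhr-10 and nhr-114 were not. A main-list summit with a signal of 136 lay past the end of nhr-114, 3158 bp after its 5′ end. That summit was in an intron of Y45G5AM.9, and its peak overlapped no thresholded peak of either library.

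Of 15 genes of the canonical, vitamin B12-dependent propionate pathway and of the methionine cycle, 2 were bound (13.3%). The share of all protein-coding genes was 4.45%, and the list is short. mmaa-1, for a protein that handles the cofactor of methylmalonyl-CoA mutase, had a signal of 139 at 68 bp after its 5′ end. ahcy-1, for adenosylhomocysteinase, had a signal of 104 at 814 bp before. Both passed the threshold in replicate 1 and not in replicate 2. The summit at ahcy-1 also fell in the window of the gene K02F2.11. mmab-1, for the enzyme that makes adenosylcobalamin, had a signal of 90.7 but a score of 827, just below the threshold of 830.

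Of 15 receptor genes conserved across animals none was bound, which at 4.45% of all protein-coding genes is a count near the background. The list holds nhr-23 and nhr-25, regulators of molting and epidermal development, and daf-12, the receptor for dauer steroids. With 13 of the 15 having a ranked window peak, the median signal was 26.2. nhr-23 had none, nhr-25 had 18.4 and daf-12 had 30.1. Of the 5 receptor genes without an nhr symbol that were examined none was bound, a list too short to be read against that share. Of these, daf-12, fax-1, sex-1 and unc-55 are also in the conserved list, and odr-7 is not.

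The sequences printed above share words. All pairs of the 7 window sites were searched over 101 bp around the summits for words of 8 or more letters in common, on both strands. Of 21 pairs 11 shared at least 1. The same count was not made for pairs of other summits or of flanking stretches, so it cannot be read as particular to receptor sites. Some shared words were no more frequent at main summits than beside them. TTTGTGAA, for example, was at 0.896% of main summits, against 1.29% and 1.39% of the flanking stretches. Words were kept where main summits held them at least 10 times as often as stretches of the same length 400 bp to either side, and words at sites on chromosome I are not given. Of 10 shared words, 2 were kept, GCGCCAGC and AACGCGTCA. Both were shared by nhr-47 and nhr-142, and they were thus chosen after their values were seen. Their excess over the flanking stretches, given below, was the condition for keeping them.

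GCGCCAGC lay from 8 to 1 bp before the nhr-47 summit and from 26 to 19 bp before the nhr-142 summit. AACGCGTCA lay from 7 to 15 bp after the nhr-47 summit and from 17 to 25 bp after the nhr-142 summit. At both sites the words had the same order and the same strand relative to the receptor gene. The nhr-68 site held neither, though it shared words that were not kept with the nhr-47, nhr-105 and nhr-142 sites.

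Over all 2010 main summits, GCGCCAGC was found within 50 bp of 39 (1.94%), against 1 and 2 of the flanking stretches, and AACGCGTCA at 13 (0.647%), against 0 and 1. Their peaks had median signals of 122 and 117, and the whole list had 82.3. Of the 39 summits with GCGCCAGC, 33 (84.6%) were in a protein-coding window, and of the 13 with AACGCGTCA, 12 were. Of all 2010 main summits, 764 were in such a window. The words were taken from window sites, so nhr-47 and nhr-142 are in both counts by the choice. Both words stood together at 5 main summits, in the windows of nhr-47 and dnj-19, of nhr-142 and F44E7.9, and of smr-1, vps-4 and Y94H6A.3. The 2 receptor sites are in this small set because the words were taken from them.

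Having a word did not go with a strong peak throughout the family. GCGCCAGC was in the windows of 1.55% of protein-coding genes and of 5 receptor genes (1.86%), and AACGCGTCA in those of 0.591% and of 3 receptor genes (1.12%). The receptor genes with a word and no main-list summit in the window were nhr-204, nhr-182, nhr-275 and nhr-48. The strongest ranked signals within 200 bp of their words were 14.0, 5.00, 35.8 and 22.7.

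Shorter words were also counted, with reverse complements. The word AGACGC was within 50 bp of none of the 7 receptor sites and of 9.25% of main summits, against 2.24% and 2.49% of the flanks. It occurred in the windows of 29.4% of receptor genes and 23.4% of protein-coding genes. GACGC, which AGACGC contains and which overlaps AACGCGTCA on the other strand, was at the nhr-47 and nhr-142 sites and at 20% of main summits, against 6.97% and 6.62% of the flanks. The nuclear receptor half-site AGGTCA was at none of the 7 sites and at 3.43% of main summits, against 2.99% and 2.89%. The GC content over 101 bp was 54.5% at the nhr-47 summit, 37.6% at nhr-68, 48.5% at nhr-49 and 50.5% at nhr-142, and the median over all main summits was 44.6%. A match of letters is a description and does not show which protein was held there.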

How the data were processed

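The deposited data were 8 peak lists on the ce11 build, 4 of the series and 2 of each of the 2 libraries. Per the deposited notes, lists were made from the alignments of 1 or both libraries with a further file, and peaks were ranked by IDR. The signal column holds peak strength as the authors deposited it, and its scale is not stated. The score column holds the scaled IDR as deposited, and their threshold was 830, or a global IDR of 0.01. The aligner and caller were not given in the sources used here. The ranked lists of the series hold 4 columns of signal per input that no name ties to a library; these were not used, and library values came from the lists of the single libraries. The control experiment named in the labels was not analysed here.

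Genes, transcripts and 5′ ends came from Ensembl release 115 for WBcel235. A list's site counted as found in a library when the peaks overlapped by at least 1 bp. Sequences came from the RefSeq genome. Scripts used Python 3.11.15, pandas 2.3.3, numpy 2.4.6, scipy 1.17.1 and matplotlib 3.10.9, and the window assignment was tested on simulated peaks. No test over samples exists for 1 group, so shares carry exact 95% intervals for counting error.

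Besides the members, genes were named where they were bound receptor genes, receptor genes just outside the window or with gene-body summits, genes at or beside member sites, or bound genes of the lists; other names were chosen after their values were seen. The members, gene lists and alternatives were chosen with earlier results of these data known. Alternatives were the other lists, stricter subsets, other windows, 5′ ends, assignments and overlaps.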

Additional observations from a re-analysis of the deposited data

How the results depend on the processing

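The 6 bound receptor genes became 2 and 3 in the lists of single libraries (without replicate 1, nhr-47 and nhr-68; without replicate 2, these and nhr-49), and 2 among the 500 strongest main peaks, nhr-47 and nhr-68. The shorter lists hold fewer peaks by construction. Under 7 other settings there were 4 to 7. The share of all protein-coding genes moved as well, and the receptor share was the lower under every setting. Among the 500 strongest peaks it was 0.743%, against 1.62% of protein-coding genes. Where a summit went only to the nearest 5′ end it was 1.49%, against 3.53%. The 3 listed genes stayed bound under 7 of 10 alternatives, with nhr-49 lost without replicate 1 and among the 500 strongest peaks, and nhr-68 lost where a summit went only to the nearest 5′ end, that of H12C20.7. The 5 bound metabolic genes became 2 with a window from 500 bp before the 5′ end to the 5′ end itself. That window drops the 200 bp after the 5′ end and with them mmaa-1. There were 8 with a window from 2000 bp before to 200 bp after it. Without replicate 1 there were 4, of which cbp-1, cpt-2 and nhr-68 were also bound in the main list and fat-6 was not. ahcy-1 and mmaa-1 were lost there. Without replicate 2 the same 5 were bound. In the same order of settings, the shares of all protein-coding genes were 3.01%, 6.14%, 2.3% and 2.49%. In both libraries the number of member sites was 2, also with summits within 100 bp or an overlap of at least 50% of both peaks. No paired analysis was possible because there was 1 group. Since the control experiment was not analysed here, whether the member sites are also enriched in it was not tested. The depth is unknown, and a gene not bound here had no peak past the threshold, which does not show that ZFP-3 was absent.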
